A study of Mus musculus with 4 samples.

Results

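The 46 genes described here encode the vacuolar proton pump and proteins of the lysosome, the organelle that the pump acidifies. They were picked by gene symbol from the 23920 genes of the expression table. Of these, 19 encode subunits or accessory proteins of the pump and 27 encode lysosomal membrane proteins, enzymes and other proteins of the lysosomal lumen. RNA sequencing was performed on bone marrow-derived macrophage-like cells (BMMs) from C57BL/6 mice, which the labels give as male and 8 weeks old. The labels also give 24 h, read here as the time under the conditions below. The study's general methods for osteoclast culture give a younger age and a first culture of marrow cells with M-CSF. The study asked whether the transcription factor STAT5 is needed for IL-3 to inhibit osteoclast formation, and sequenced 1 library for each of 4 conditions. *Stat5* cKO cells that received IL-3 beside M-CSF and RANKL (the cKO library) came from mice in which Mx1-Cre, driven by a promoter that type I interferon induces, had excised floxed *Stat5a* and *Stat5b*. *Stat5* fl/fl cells, whose floxed genes were intact, received the same 3 cytokines (the IL-3 library), M-CSF and RANKL (the RANKL library) or M-CSF alone (the M-CSF library). Both genotypes were littermates and had received poly I:C, the inducer of Mx1-Cre, which is not restricted to osteoclast precursors. The cKO genotype was sequenced only with RANKL and IL-3, and the number of mice behind each library is not given in the sources used here.

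The vacuolar ATPase moves protons into organelles or out of the cell. Its V1 sector, in the cytosol, hydrolyses ATP and turns a rotor, and its V0 sector, in the membrane, carries the protons across. Most cells use the pump to acidify lysosomes, where hydrolases work at low pH, whereas osteoclasts also place it in the ruffled border, the membrane facing bone, and release acid that dissolves bone mineral. The V0 subunits a and d have several gene copies (paralogs), and the osteoclast pump is known for subunits a3, encoded by *Tcirg1*, and d2, encoded by *Atp6v0d2*. Macrophages are rich in lysosomal enzymes, which break down the material they engulf.

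Expression was measured in FPKM, a fragment count divided by transcript length and by library size, so that levels are per length and can be set side by side between genes. The depth estimated from the steps between low values was 33 to 36.9 M fragments per library, and the FPKM of all genes summed to between 507691 and 544287. A ratio is the difference of log2(FPKM + 1) between 2 libraries, and 10766 genes that reached 1 FPKM in any library were compared. Those at least 2-fold apart on this scale are called higher or lower. No condition was replicated, so a ratio describes only the pair of libraries behind it and has no replicate check. The comparison of RANKL against M-CSF shares the RANKL library with that of RANKL with IL-3 against RANKL, which shares the IL-3 library with that of cKO against fl/fl. *Stat5a* stood at 0.168 FPKM in the cKO library, against 9.89 to 12.0 FPKM in the fl/fl libraries, and *Stat5b* at 0.191 FPKM against 7.80 to 10.8 FPKM. The cell type label reads osteoclast for all 4 libraries, although the title of the M-CSF library gives osteoclast precursor. The 9 osteoclast marker genes examined summed to 484 FPKM in the cKO library, 114 FPKM in the IL-3 library, 1178 FPKM in the RANKL library and 43.5 FPKM in the M-CSF library, while *Calcr*, which encodes the calcitonin receptor of mature osteoclasts, was listed at 0 in all of them. *Itgb3* ran against the sum, at 0.40, 1.13, 0.82 and 1.38 FPKM in the cKO, IL-3, RANKL and M-CSF libraries, and *Oscar* did not exceed 0.698 FPKM. The 8 macrophage markers measured summed to 1259 FPKM in the cKO library, 2029.8 FPKM in the IL-3 library, 1183 FPKM in the RANKL library and 3228 FPKM in the M-CSF library. Fewer cells of a type and less RNA per cell cannot be told apart in such bulk libraries.

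Of the 46 genes, 36 were within 2-fold in all 3 comparisons, among them *Atp6v0e2*, which was under the minimum. The share of all genes within 2-fold throughout was not computed, so this count does not set the members apart. The 45 members over the minimum included 1 gene at least 2-fold higher with RANKL than with M-CSF, or 2.22% of them, where 5.43% of all genes tested were. Another 8 members, or 17.8%, were at least 2-fold lower with RANKL, where 6.87% of all genes were. With IL-3 added to RANKL, 3 members (6.67%) were at least 2-fold higher and 1 (2.22%) was lower, against 6.11% and 3.46% of all genes, shares near those of all genes. In the cKO library, 0 members were at least 2-fold higher than in the IL-3 library and 2 (4.44%) were lower, against 2.12% and 4.28% of all genes. By the same rule at 1.5-fold, 3 members were higher and 11 (24.4%) lower with RANKL, where 15.6% and 13.9% of all genes were. At 1.5-fold with IL-3, 9 of the 45 members were higher and 1 was lower, against 12.1% and 12.7% of all genes. At 1.5-fold in the cKO library, 0 members were higher and 7 (15.6%) were lower, against 8.43% and 8.89% of all genes. At 4-fold, 1 member (*Atp6v0d2*) was higher and 1 (*Atp6v0a1*) lower with RANKL, against 1.15% and 1.5% of all genes. At 4-fold with IL-3, *Atp6v0a1* was the 1 member higher and 0 were lower, against 1.63% and 0.687% of all genes, and in the cKO library 0 were higher and *Atp6v0a1* was the 1 lower, against 0.316% and 1% of all genes. The pump and the lysosome differed in where these genes lay. All 7 members other than *Atp6v0a1* that were 2-fold lower with RANKL were lysosomal, which is 25.9% of the 27 lysosomal members.

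**Figure D1:**
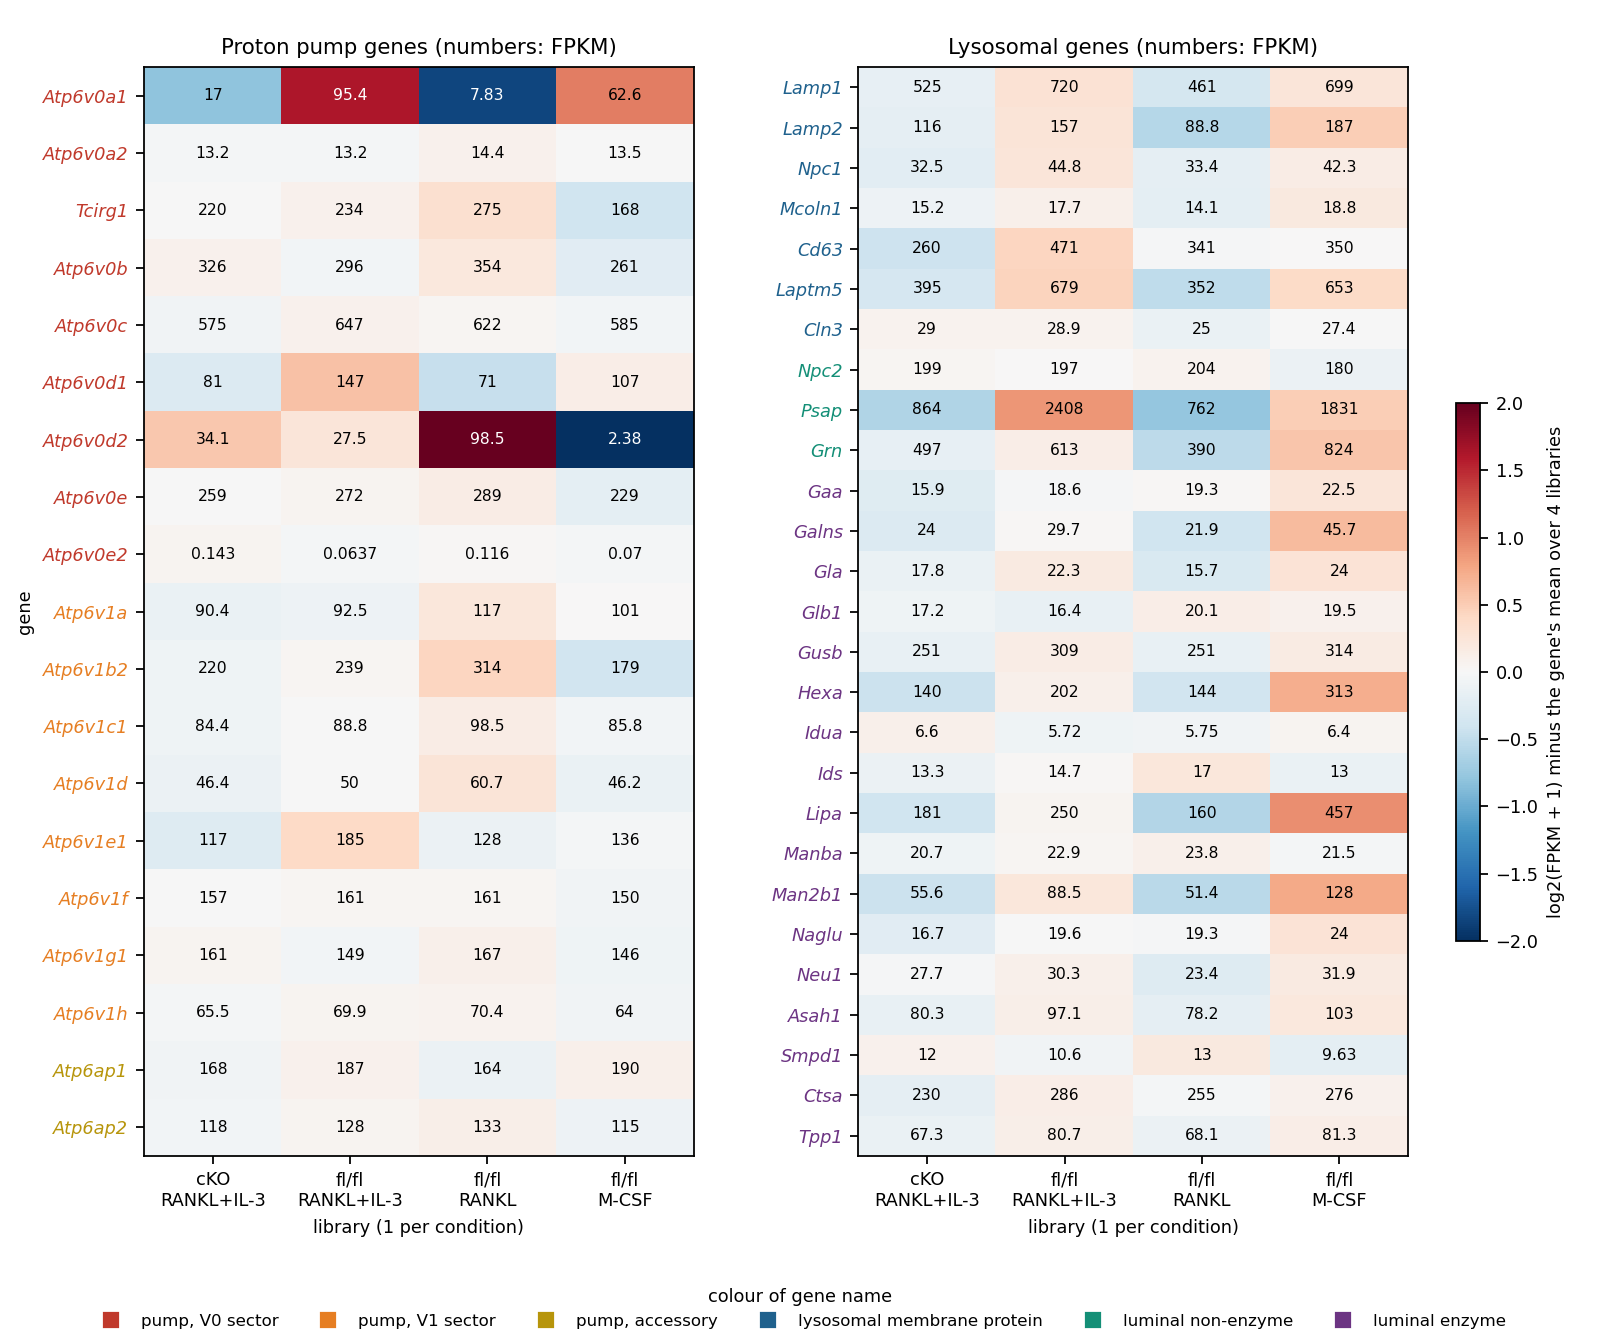
Level of each of the 46 genes in the 4 libraries, with the FPKM printed in each cell and the colour giving log2(FPKM + 1) minus the gene's mean over the libraries. Rows are genes, coloured by role, and columns are libraries, 1 per condition. Strong colours are limited to *Atp6v0a1*, *Atp6v0d2*, *Psap* and a few enzymes such as *Lipa* at 457 FPKM with M-CSF.

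The typical pump gene moved little, and its shift had the sign of that of all genes with RANKL and with IL-3 but not in the cKO library. The median log2 ratio of the 18 pump members over the minimum was 0.19 for RANKL against M-CSF, beside 0.14 over all genes, and 14 of the 18 (77.8%) lay above 0, where 61.0% of all genes did. With IL-3 their median was -0.10, beside -0.15 over all genes, and its sign turned to 0.069 when libraries were scaled to a common median ratio. In the cKO library it was -0.09, beside 0.13 over all genes, and 15 of the 18 (83.3%) lay below 0, where 35.6% of all genes did. With the common median ratio the cKO median of the pump was -0.23. Highest levels were in the RANKL library for 12 of the 18, where 40.5% of all genes had theirs. The lysosomal medians stood farther from those of all genes. The median of these 27 was -0.33 with RANKL (22 of 27 below 0, and 38.9% of all genes), 0.31 with IL-3 (20 of 27 above 0, and 36.0% of all genes) and -0.30 in the cKO library (22 of 27 below 0, and 35.6% of all genes). The M-CSF library held the highest level for 14 of the 27, where 24.9% of all genes had theirs, and the RANKL library the lowest for 14, where 23.4% of all genes did. Under the common median ratio scaling, which takes out the shift of all genes, the lysosomal medians were -0.49, 0.48 and -0.43 for the same comparisons.

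**Figure D2:**
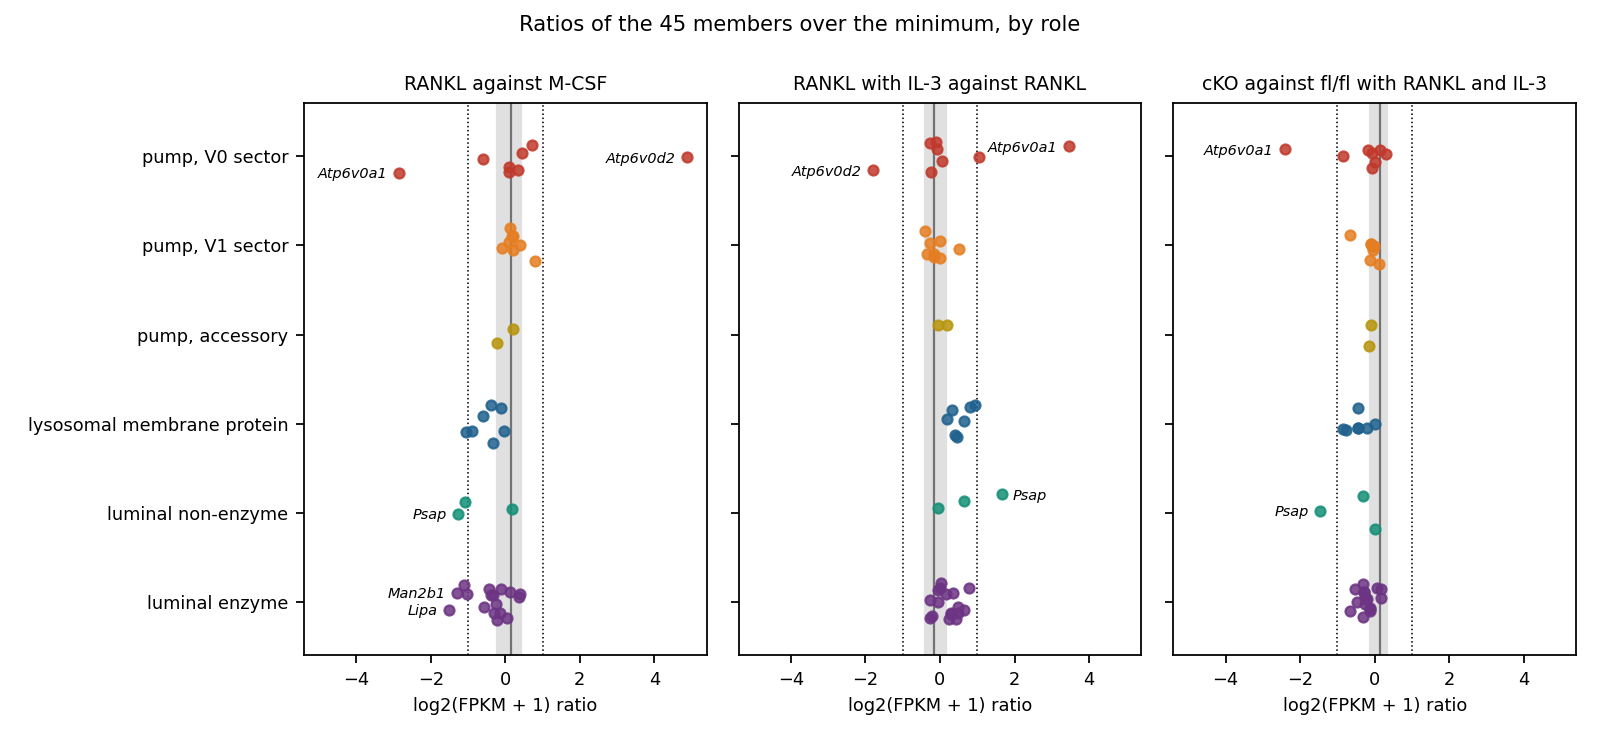
Log2(FPKM + 1) ratio of each of the 45 members over the minimum in the 3 comparisons, by role, with a vertical jitter that carries no value. Each point is a gene, the grey band spans the middle 50% of all genes and its line their median, and dotted lines mark 2-fold. The membrane proteins lie below 0 with RANKL and above 0 with IL-3, and *Atp6v0a1* lies beyond 2-fold in each comparison (-2.85, 3.45 and -2.42).

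Among the subunit a genes, *Atp6v0a1* varied most, while *Tcirg1* dominated throughout. Subunit a anchors the pump in its membrane, and its paralogs are known to direct it to different membranes. *Atp6v0a1*, which encodes a1 (chr11:101009422-101063719, mm10), stood at 17.0 FPKM in the cKO library, 95.4 FPKM in the IL-3 library, 7.83 FPKM in the RANKL library and 62.6 FPKM in the M-CSF library. It was thus low in the RANKL and cKO libraries and high in the other fl/fl libraries. The FPKM with RANKL was 8.00-fold below that with M-CSF (log2 ratio -2.85), and that with IL-3 was 12.2-fold above that with RANKL (3.45). In the cKO library it was 5.60-fold below the IL-3 library (log2 ratio -2.42). From these ratios it ranked 38th from the lowest of the 10766 genes with RANKL, 36th from the highest with IL-3 and 68th from the lowest in the cKO library. Its transcripts kept their shares, and the most abundant took 66.5% to 71.4% of its FPKM in each library. The gene lies 124 kb from *Stat5a* on the same chromosome. *Naglu*, a neighbour 6370 bases beyond it that encodes an enzyme of heparan sulfate breakdown, stood at 16.7 FPKM in the cKO library and at 19.6, 19.3 and 24.0 FPKM in the IL-3, RANKL and M-CSF libraries.

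*Tcirg1*, whose product a3 is needed for bone resorption and whose loss causes osteopetrosis, had 220.3 FPKM in the cKO library, against 234 FPKM in the IL-3 library, 275 FPKM in the RANKL library and 168 FPKM in the M-CSF library. Its level with RANKL was 1.64-fold that with M-CSF (log2 ratio 0.71), and its ratios with IL-3 and in the cKO library were -0.24 and -0.08. Of the summed FPKM of the subunit a genes, *Tcirg1* made up 87.9% in the cKO library, 68.2% in the IL-3 library, 92.5% in the RANKL library and 68.8% in the M-CSF library. The rest was mostly *Atp6v0a1*, with 6.80%, 27.9%, 2.63% and 25.6% in the cKO, IL-3, RANKL and M-CSF libraries. *Atp6v0a2*, whose a2 product works in the Golgi, stayed at 13.2, 13.2, 14.4 and 13.5 FPKM in the cKO, IL-3, RANKL and M-CSF libraries. Its largest ratio was -0.11, and *Atp6v0a4*, the copy of kidney and inner ear, was listed at 0 in every library.

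*Tcirg1* has 3 annotated transcripts that begin at different sites on chromosome 19, and the table divides its reads among them. The transcript from the most upstream site held 192 FPKM in the cKO library, 214 FPKM in the IL-3 library, 229.5 FPKM in the RANKL library and 159 FPKM in the M-CSF library. The site farthest downstream, 1903 bases away, held 18.8, 10.8, 31.0 and 4.64 FPKM in the cKO, IL-3, RANKL and M-CSF libraries. It thus had its highest level with RANKL and its lowest with M-CSF, as the gene's sum did. The third site, 150 bases from the most upstream one, held 9.08, 8.88, 14.7 and 4.66 FPKM in the cKO, IL-3, RANKL and M-CSF libraries. Together the 2 lower sites stood at 45.7 FPKM with RANKL against 9.30 FPKM with M-CSF, a log2 ratio of 2.18, and at 19.7 FPKM with IL-3 against 45.7 FPKM with RANKL (-1.17). These per-transcript values are the authors' software's division of reads shared by overlapping transcripts, with no uncertainty in the table. The RefSeq windows of 300 bases around the outer sites, from 250 bases before to 50 after the start in GRCm38.p6 (mm10) coordinates on the minus strand, are shown because these transcripts differ in their ratios, and none of the motifs searched was found in them.
Tcirg1 upstream start, chr19:3907084-3907383: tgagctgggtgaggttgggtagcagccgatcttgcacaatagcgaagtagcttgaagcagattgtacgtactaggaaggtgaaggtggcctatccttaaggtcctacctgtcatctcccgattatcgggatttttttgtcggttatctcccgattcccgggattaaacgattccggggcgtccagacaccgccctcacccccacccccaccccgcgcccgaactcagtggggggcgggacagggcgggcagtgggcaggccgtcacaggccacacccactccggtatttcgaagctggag
Tcirg1 downstream start, chr19:3905181-3905480: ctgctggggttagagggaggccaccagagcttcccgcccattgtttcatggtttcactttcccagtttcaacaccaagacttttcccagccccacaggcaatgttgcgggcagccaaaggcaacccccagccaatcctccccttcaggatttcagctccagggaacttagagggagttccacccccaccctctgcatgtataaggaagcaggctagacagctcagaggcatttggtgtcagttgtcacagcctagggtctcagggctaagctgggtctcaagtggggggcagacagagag
The upstream window had 59.0% G and C with 20 CG pairs, and the downstream one 56.3% with 2, where the median over all windows of the table was 52.7%.

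Subunit d links the rotor of the pump to V1, and the shares of its paralogs differed between conditions more than those of any other subunit. *Atp6v0d2* (chr4:19876838-19922566), which in mice is also needed for osteoclast precursors to fuse, stood at 34.1 FPKM in the cKO library, 27.5 FPKM in the IL-3 library, 98.5 FPKM in the RANKL library and 2.38 FPKM in the M-CSF library. It was low without RANKL and highest with RANKL alone. The level with RANKL was 41.3-fold that with M-CSF (log2 ratio 4.88), the 5th highest ratio of all genes tested, and that with IL-3 was 3.58-fold lower than with RANKL (-1.80). The cKO library was 1.24-fold above the IL-3 library, a log2 ratio of 0.30 that does not reach the 2-fold limit. Its 2.38 FPKM with M-CSF correspond to about 199.7 fragments, the fewest of any member over the minimum. The log2 of its 41.3-fold difference, without the pseudocount, has a 95% counting interval of 0.20 to either side, which covers counting error only. *Atp6v0d1* (chr8:105524461-105566064), the widely expressed paralog, had 81.0 FPKM in the cKO library, against 147 FPKM in the IL-3 library, 71.0 FPKM in the RANKL library and 107 FPKM in the M-CSF library. It was highest with IL-3 and lowest with RANKL. Its ratio with IL-3, 1.04, just passed the 2-fold limit, and those with RANKL, -0.59, and in the cKO library, -0.85, did not reach it. Of the summed FPKM of the pair, *Atp6v0d2* made up 29.7% in the cKO library, 15.8% in the IL-3 library, 58.1% in the RANKL library and 2.17% in the M-CSF library. The sums themselves were 115, 174, 169 and 109.6 FPKM in the cKO, IL-3, RANKL and M-CSF libraries.

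**Figure D3:**
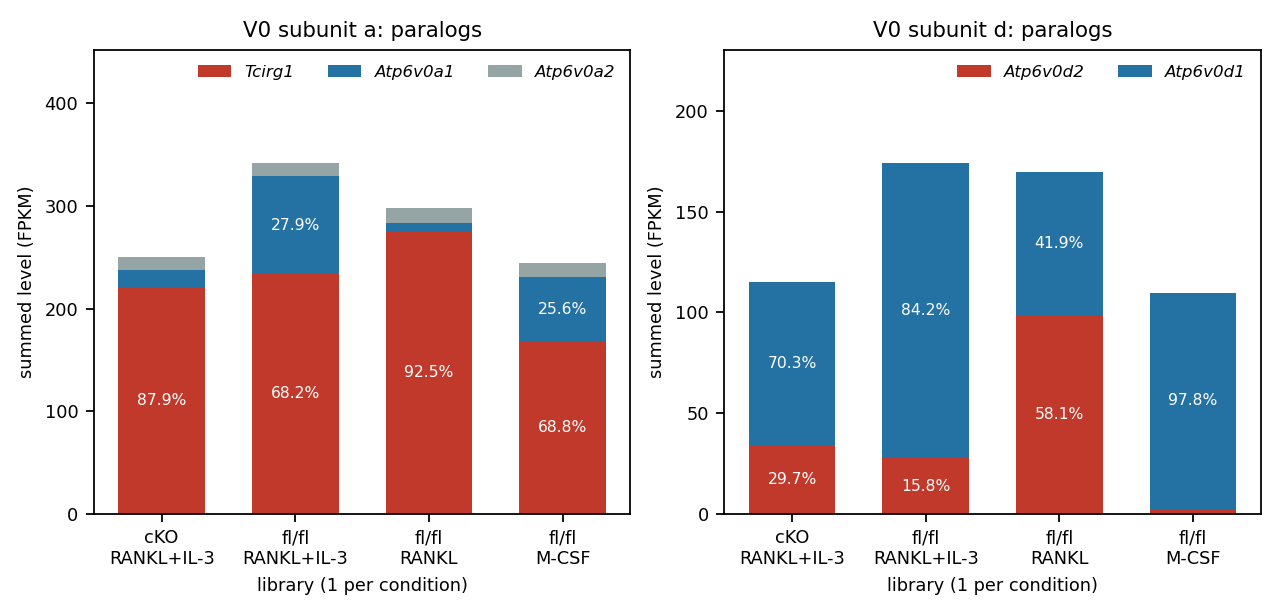
Stacked FPKM of the paralogs of V0 subunit a (left) and subunit d (right) in the 4 libraries, with each paralog's share of its bar where it is large enough to print. *Tcirg1* holds 92.5% of subunit a in the RANKL library and 68.2% in the IL-3 library, and *Atp6v0d2* holds 58.1% of subunit d in the RANKL library and 15.8% in the IL-3 library.

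The other V0 genes were high and steady. *Atp6v0c*, which encodes the proteolipid that forms most of the rotor ring, was the highest pump gene with 575 FPKM in the cKO library, 647 FPKM in the IL-3 library, 622 FPKM in the RANKL library and 585 FPKM in the M-CSF library, although it has processed pseudogenes that could share its reads. *Atp6v0b*, the second ring proteolipid, had 326, 296, 354 and 261 FPKM in the cKO, IL-3, RANKL and M-CSF libraries, and its largest ratio was 0.44 with RANKL. *Atp6v0e*, a small subunit of the V0 base, had 259, 272, 289 and 229 FPKM in the cKO, IL-3, RANKL and M-CSF libraries. The ring and base genes were thus at most 1.35-fold apart in any comparison. *Atp6v0e2*, the paralog of *Atp6v0e* known from brain, was the only member under the minimum, at 0.14, 0.06, 0.12 and 0.07 FPKM in the cKO, IL-3, RANKL and M-CSF libraries. These values correspond to about 4 to 9 fragments a library, and no difference between them was detectable at this depth.

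None of the 8 V1 genes was 2-fold apart in any comparison, where at most 6.87% of all genes were in any one direction of any one comparison. The share of all genes 2-fold apart in any of the 3 comparisons was not computed. The count of 0 in 8 genes therefore does not set V1 apart. *Atp6v1b2*, which encodes a B subunit of the ATP-hydrolysing head, was the highest V1 gene at 220.4 FPKM in the cKO library, 239 FPKM in the IL-3 library, 314 FPKM in the RANKL library and 179 FPKM in the M-CSF library. Its level with RANKL was 1.75-fold that with M-CSF (log2 ratio 0.81), and no other V1 gene was past 1.5-fold there. *Atp6v1a*, the catalytic subunit A, had 90.4, 92.5, 117 and 101 FPKM in the cKO, IL-3, RANKL and M-CSF libraries. The A and B genes were both highest with RANKL, and neither was past 1.5-fold with IL-3 (-0.34 for *Atp6v1a* and -0.39 for *Atp6v1b2*). *Atp6v1e1*, part of the stalk that keeps the head from turning, differed from these with 117 FPKM in the cKO library, 185 FPKM in the IL-3 library, 128 FPKM in the RANKL library and 136 FPKM in the M-CSF library. It was highest with IL-3 (log2 ratio 0.52 against RANKL) and lower in the cKO library than in the IL-3 library by 1.58-fold (-0.66). The remaining 5 genes, for the stalk subunits C1 (*Atp6v1c1*) and G1 (*Atp6v1g1*), the rotor subunits D (*Atp6v1d*) and F (*Atp6v1f*), and the regulatory subunit H (*Atp6v1h*), ran in level between 46.2 and 167 FPKM. *Atp6v1d* was the most variable of them, with 46.4 FPKM in the cKO library, 50.01 FPKM in the IL-3 library, 60.7 FPKM in the RANKL library and 46.2 FPKM in the M-CSF library. *Atp6v1f* was the steadiest, at 157, 161, 161 and 150.0 FPKM in the cKO, IL-3, RANKL and M-CSF libraries. The V1 median ratio was 0.19 with RANKL, -0.15 with IL-3 and -0.08 in the cKO library, and with the common median ratio scaling that for IL-3 turned to 0.02.

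The accessory proteins of the pump were likewise even. *Atp6ap1*, which encodes Ac45, had 168 FPKM in the cKO library, 187 FPKM in the IL-3 library, 164 FPKM in the RANKL library and 189.6 FPKM in the M-CSF library. *Atp6ap2*, the (pro)renin receptor, had 118, 128, 133 and 115 FPKM in the cKO, IL-3, RANKL and M-CSF libraries. Their log2 ratios ran between -0.21 and 0.22. Of the 6 further pump subunit genes outside the members, 5 were listed at 0 in every library, and *Atp6v1g2* stood between 0.90 and 1.27 FPKM, so that the members held between 99.2% and all of the FPKM of each V1 subunit with paralogs. Of 7 genes for assembly and regulation of the pump (*Tmem199*, *Ccdc115*, *Vma21*, *Dmxl1*, *Dmxl2*, *Wdr7* and *Rogdi*), 0 were 2-fold apart in any comparison. At most 6.87% of all genes were in any one direction of any one comparison, and the share over all comparisons was not computed. The count of 0 in 7 genes therefore does not set them apart. *Dmxl1*, which encodes a regulator of pump assembly, was nearest to the limit with 4.44 FPKM in the IL-3 library against 7.54 FPKM in the RANKL library (log2 ratio -0.65). *Tmem199*, which helps to assemble V0, had 28.5 FPKM in the RANKL library against 17.9 FPKM in the M-CSF library (0.64).

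The lysosomal members took a larger part of all FPKM in the IL-3 and M-CSF libraries than in the others. Summed over the 27 genes, this part was 0.778% in the cKO library, 1.26% in the IL-3 library, 0.760% in the RANKL library and 1.28% in the M-CSF library. The 19 pump genes took 0.521%, 0.566%, 0.620% and 0.504% of all FPKM in the cKO, IL-3, RANKL and M-CSF libraries, highest with RANKL. *Psap* alone weighed heavily, and without it the other lysosomal genes took 0.615% in the cKO library, 0.814% in the IL-3 library, 0.610% in the RANKL library and 0.930% in the M-CSF library. The summed macrophage markers given above moved with the lysosomal sums, in that both were higher in the IL-3 and M-CSF libraries. So did the sum of 6 neutrophil genes, which was 719.5, 1024, 692 and 1214 FPKM in the cKO, IL-3, RANKL and M-CSF libraries. All 6 were above 1 FPKM in every library, and *S100a8* and *S100a9* held most of the sum. *Ltf* alone of the 6 was not higher in the IL-3 library (21.6 FPKM) than in the cKO library (23.3 FPKM). The 7 dendritic cell genes examined summed to 128, 596, 117 and 172 FPKM in the cKO, IL-3, RANKL and M-CSF libraries, and moved with the lysosomal sums in that the IL-3 library was above the cKO and RANKL libraries. Of the 7, *Cd74*, *Itgax*, *H2-Ab1* and *Ccl22* were highest in the IL-3 library, with *Itgax* at 9.95, 99.7, 10.2 and 7.78 FPKM in the cKO, IL-3, RANKL and M-CSF libraries, whereas *Flt3*, *Zbtb46* and *Cd209a* were under 1 FPKM in each of them. One of the macrophage markers, *Cd68*, encodes a lysosomal protein itself. The part of other cell types in the lysosomal ratios was not tested.

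All 7 membrane proteins were lower with RANKL than with M-CSF and higher with IL-3 than with RANKL, and 6 of the 7 were lower in the cKO library than in the IL-3 library. Their median log2 ratios were -0.39, 0.46 and -0.45 in these comparisons, and the signs held with both scalings. *Lamp1*, a heavily glycosylated protein that lines the lysosomal membrane, was the highest of them at 525 FPKM in the cKO library, 719.7 FPKM in the IL-3 library, 461 FPKM in the RANKL library and 699 FPKM in the M-CSF library. *Lamp2*, its relative, which also serves in chaperone-mediated autophagy, had 116, 157, 88.8 and 187 FPKM in the cKO, IL-3, RANKL and M-CSF libraries. It alone of the 7 passed the limit, with a level 2.10-fold lower with RANKL than with M-CSF (log2 ratio -1.07). *Laptm5*, a lysosomal protein of blood cells that lowers surface receptors, stood at 395 FPKM in the cKO library, 679 FPKM in the IL-3 library, 352 FPKM in the RANKL library and 653 FPKM in the M-CSF library. Its ratios of -0.89, 0.95 and -0.78 did not reach the limit, and with the common median ratio scaling those with RANKL and with IL-3 passed it (-1.05 and 1.12). *Cd63*, a tetraspanin of late endosomes, had 259.6 FPKM in the cKO library, 471 FPKM in the IL-3 library, 341 FPKM in the RANKL library and 349.8 FPKM in the M-CSF library, and a pseudogene could share its reads. *Cd63* had the RANKL ratio nearest to 0 of the 7 (-0.03, beside -0.12 for *Cln3*), while its level in the cKO library was 1.81-fold lower than in the IL-3 library (-0.86). The transporters and channels were lower in level. *Npc1*, which exports cholesterol from lysosomes, had 32.5, 44.8, 33.4 and 42.3 FPKM in the cKO, IL-3, RANKL and M-CSF libraries, and *Mcoln1*, the calcium channel TRPML1, had 15.2, 17.7, 14.1 and 18.8 FPKM in the cKO, IL-3, RANKL and M-CSF libraries. *Cln3*, whose loss causes a childhood neurodegeneration, had 29.0, 28.9, 25.05 and 27.4 FPKM in the cKO, IL-3, RANKL and M-CSF libraries, and its exons overlap those of *Apobr* on the other strand by 442 bases, so that reads there could count for either gene.

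*Psap* was the highest member of all and varied more than any other lysosomal member. It encodes prosaposin, the precursor of the saposins that present sphingolipids to their hydrolases. It stood at 864 FPKM in the cKO library, 2408 FPKM in the IL-3 library, 762 FPKM in the RANKL library and 1831 FPKM in the M-CSF library. The cKO and RANKL libraries were thus low and the others high, as for *Atp6v0a1*. The level with RANKL was 2.40-fold lower than with M-CSF (log2 ratio -1.26), and with IL-3 it was 3.16-fold that with RANKL (1.66). The cKO library was 2.79-fold below the IL-3 library (-1.48). *Grn*, which encodes the growth factor and lysosomal protein progranulin, had 497 FPKM in the cKO library, 613 FPKM in the IL-3 library, 389.6 FPKM in the RANKL library and 824 FPKM in the M-CSF library. Its RANKL ratio of -1.08 passed the limit, and the ratios with IL-3 (0.65) and in the cKO library (-0.30) did not. *Npc2*, which hands cholesterol to NPC1, was even at 199, 197, 204 and 179.9 FPKM in the cKO, IL-3, RANKL and M-CSF libraries.

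*Psap* has 6 annotated transcripts, of which 5 begin at an upstream site and 1 begins 6833 bases downstream, and the estimated level of the downstream one differed widely between libraries. The downstream transcript held 76.4 FPKM in the cKO library, 462 FPKM in the IL-3 library, 1.07 FPKM in the RANKL library and 291 FPKM in the M-CSF library. It made up 8.84%, 19.2%, 0.140% and 15.9% of the gene in the cKO, IL-3, RANKL and M-CSF libraries. The 5 upstream transcripts together held 788 FPKM in the cKO library, 1947 FPKM in the IL-3 library, 761 FPKM in the RANKL library and 1539 FPKM in the M-CSF library. Upstream transcripts alone thus followed the same course, with log2 ratios of -1.02 with RANKL, 1.35 with IL-3 and -1.30 in the cKO library. With only the most abundant transcript counted, the RANKL ratio of *Psap* was -0.98, just short of the limit. The downstream transcript is set apart by a first exon of 71 bases (chr10:60284461-60284531), and how surely its reads were told from those of the others is not given in the table. The windows around both starts, 250 bases before to 50 after on the plus strand, are shown because the share of the downstream start ran from 0.140% to 19.2%. Capitals mark the letters TGANTCA, the motif of AP-1 factors, where found.
Psap upstream start, chr10:60277378-60277677: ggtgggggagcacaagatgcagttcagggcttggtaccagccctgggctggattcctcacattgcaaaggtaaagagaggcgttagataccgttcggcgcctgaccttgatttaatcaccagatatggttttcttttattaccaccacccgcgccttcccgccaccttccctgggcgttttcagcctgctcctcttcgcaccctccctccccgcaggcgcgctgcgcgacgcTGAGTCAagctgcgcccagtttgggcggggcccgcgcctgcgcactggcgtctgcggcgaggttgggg
Psap downstream start, chr10:60284211-60284510: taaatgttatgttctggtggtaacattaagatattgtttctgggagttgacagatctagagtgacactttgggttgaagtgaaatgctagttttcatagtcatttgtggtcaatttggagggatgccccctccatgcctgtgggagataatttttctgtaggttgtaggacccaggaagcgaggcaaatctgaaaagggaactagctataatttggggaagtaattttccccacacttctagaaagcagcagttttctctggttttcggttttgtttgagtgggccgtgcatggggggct
The upstream window had 62.0% G and C with 23 CG pairs and held the AP-1 letters at position -18 from the start. The downstream window had 43.3% with 3 CG pairs and held none of the motifs searched.

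**Figure D4:**
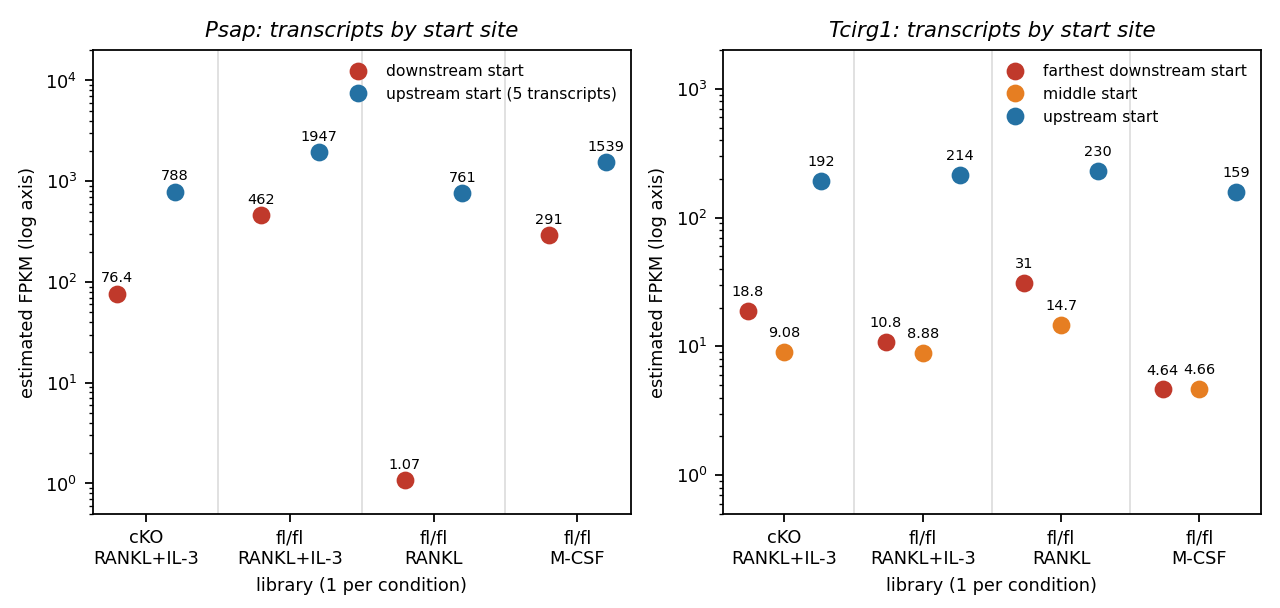
Estimated FPKM, on a log axis, of transcripts of *Psap* (left) and *Tcirg1* (right) grouped by their start site in the 4 libraries. Each point is the value of 1 start in 1 library. The downstream start of *Psap* stands at 1.07 FPKM in the RANKL library and at 462 FPKM in the IL-3 library, while the downstream start of *Tcirg1* is highest in the RANKL library at 31.0 FPKM.

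Among the 17 luminal enzymes, 4 were at least 2-fold lower with RANKL than with M-CSF, where 6.87% of all genes were. With IL-3 or in the cKO library 0 were 2-fold apart, where at most 6.11% of all genes were in any one direction of either comparison. The share of all genes over both directions and comparisons was not computed. The counts of 0 in 17 genes therefore do not set the enzymes apart. *Lipa*, the acid lipase that frees cholesterol and fatty acids from engulfed lipoproteins, stood at 181 FPKM in the cKO library, 250.2 FPKM in the IL-3 library, 159.8 FPKM in the RANKL library and 457 FPKM in the M-CSF library. It was the most changed enzyme, 2.86-fold lower with RANKL (log2 ratio -1.51), and the IL-3 library lay between the RANKL and M-CSF libraries. *Man2b1*, the lysosomal alpha-mannosidase, had 55.6 FPKM in the cKO library, 88.5 FPKM in the IL-3 library, 51.4 FPKM in the RANKL library and 128 FPKM in the M-CSF library. Its RANKL ratio was -1.30, and it was also past 1.5-fold with IL-3 (0.77) and in the cKO library (-0.66). *Hexa*, the alpha subunit of beta-hexosaminidase, had 139.6, 202, 144 and 313 FPKM in the cKO, IL-3, RANKL and M-CSF libraries, with a RANKL ratio of -1.11. *Galns*, a sulfatase of keratan sulfate and chondroitin sulfate, had 24.0, 29.7, 21.9 and 45.7 FPKM in the cKO, IL-3, RANKL and M-CSF libraries, and its RANKL ratio of -1.03 passed the limit by the least of all members. These 4 genes share the order in which M-CSF was highest and IL-3 next. The enzymes as a group had median ratios of -0.30 with RANKL, 0.24 with IL-3 and -0.26 in the cKO library, and both scalings kept these signs. Of the 17 ratios, 13 were below 0 with RANKL, 11 above 0 with IL-3 and 14 below 0 in the cKO library.

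The other enzymes stayed within 2-fold. *Gusb*, beta-glucuronidase, was the highest enzyme in the cKO and IL-3 libraries, at 251 FPKM in the cKO library, 309 FPKM in the IL-3 library, 251 FPKM in the RANKL library and 314 FPKM in the M-CSF library. *Ctsa*, which encodes the protective protein cathepsin A, had 230.2, 286, 255 and 276 FPKM in the cKO, IL-3, RANKL and M-CSF libraries, but its exons overlap *Pltp* on the other strand by 495 bases, a gene at up to 101 FPKM. Neither was past 1.5-fold in any comparison. *Gla*, alpha-galactosidase A, had 17.8 FPKM in the cKO library, 22.3 FPKM in the IL-3 library, 15.7 FPKM in the RANKL library and 24.0 FPKM in the M-CSF library, with a RANKL ratio of -0.58. *Neu1*, the lysosomal sialidase that *Ctsa*'s product stabilises, had 27.7, 30.3, 23.4 and 31.9 FPKM in the cKO, IL-3, RANKL and M-CSF libraries, and *Asah1*, acid ceramidase, had 80.3, 97.1, 78.2 and 103 FPKM in the cKO, IL-3, RANKL and M-CSF libraries. *Tpp1*, a peptidase, had 67.3, 80.7, 68.1 and 81.3 FPKM in the cKO, IL-3, RANKL and M-CSF libraries. These 4 genes were lower in the cKO and RANKL libraries than in the others. A few enzymes ran the other way with RANKL. *Smpd1*, acid sphingomyelinase, had 12.0 FPKM in the cKO library, 10.6 FPKM in the IL-3 library, 12.99 FPKM in the RANKL library and 9.63 FPKM in the M-CSF library, and its ratio of 0.40 was the highest of the lysosomal members with RANKL. *Ids*, a sulfatase of heparan and dermatan sulfate, had 13.3, 14.7, 17.0 and 13.001 FPKM in the cKO, IL-3, RANKL and M-CSF libraries (0.37). The remaining enzymes were not past 1.5-fold in any comparison either. *Glb1*, beta-galactosidase, ran between 16.4 and 20.1 FPKM, *Manba*, beta-mannosidase, between 20.7 and 23.8 FPKM, *Gaa*, acid alpha-glucosidase, between 15.9 and 22.5 FPKM, and *Idua*, the iduronidase whose loss causes a mucopolysaccharidosis, between 5.72 and 6.60 FPKM. A transcript that RefSeq lists as noncoding held 43.0% to 60.6% of the *Glb1* sum in each library.

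The same rule was applied to other genes of the pathway. Of 25 lysosomal genes outside the members, RANKL left 4 (16%) at least 2-fold lower, where 6.87% of all genes were, and 0 higher. IL-3 left 2 (8%) higher, where 6.11% of all genes were, and 0 lower than RANKL alone. In the cKO library 2 (8%) were lower, where 4.28% of all genes were, and 0 were higher. With the common median ratio 7 of the 25 were lower with RANKL, 5 were higher with IL-3 and the cKO library had 3 lower, with 0 in the other directions. Under that scaling 936, 815 and 550 of the 10766 genes tested were past 2-fold in these respective directions, more than without it. *Cd164*, a sialomucin of endosomes and lysosomes, stood at 32.1 FPKM in the cKO library, 142 FPKM in the IL-3 library, 25.9 FPKM in the RANKL library and 49.7 FPKM in the M-CSF library, with log2 ratios of 2.41 with IL-3 and -2.11 in the cKO library. *Pla2g15*, a lysosomal phospholipase, had 12.8, 27.9, 10.5 and 30.3 FPKM in the cKO, IL-3, RANKL and M-CSF libraries and was past the limit in all 3 comparisons (-1.45, 1.33 and -1.07). The genes that deliver enzymes to the lysosome did not share one course. *M6pr* and *Igf2r* encode the mannose 6-phosphate receptors, which carry new hydrolases from the Golgi. *M6pr* had 379 FPKM in the cKO library, 260.0 FPKM in the IL-3 library, 425 FPKM in the RANKL library and 210.4 FPKM in the M-CSF library, and *Igf2r* had 57.5, 50.4, 67.8 and 28.8 FPKM in the cKO, IL-3, RANKL and M-CSF libraries. Both were at least 2-fold higher with RANKL (log2 ratios 1.01 and 1.21), where 13 of the 17 member enzymes had ratios below 0, although only 1 of the 2 genes stayed past the limit with either scaling. *Sort1*, which encodes the sorting receptor for prosaposin, had 2.79 FPKM in the cKO library, 7.82 FPKM in the IL-3 library, 2.97 FPKM in the RANKL library and 12.0 FPKM in the M-CSF library. Its ratios of -1.71, 1.15 and -1.22 had the signs that *Psap* had. Of the 5 Ragulator genes, which anchor mTORC1 signalling to the lysosome, *Lamtor4* alone was past the limit. It had 66.6 FPKM with IL-3 against 30.8 FPKM with RANKL (1.09), where 6.11% of all genes were higher. All 5 had ratios below 0 with RANKL and above 0 with IL-3, where 38.9% and 36.0% of all genes did. With the common median ratio, 1 of the 5 was also past the limit with RANKL.

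The MiT factors, among them TFEB and MITF, are known to bind E-boxes with the letters GTCACGTG in front of pump and lysosome genes, and these letters were searched in the promoters. RefSeq windows of 300 bases, 250 before to 50 after each start (GRCm38.p6), were on hand for 37 of the 46 members, 44 windows in all. GTCACGTG on either strand was in 9 of the 44 windows (20.5%), where 4.33% of 11102 windows of genes tested and 2.25% of all 32851 windows held it. Its core CACGTG, which every such match contains, was in 12 (27.3%), against 10.3% and 7.15%. TTCNNNGAA, the motif of STAT factors on both strands, was in 1 member window (2.27%), where 6.83% of windows of genes tested held it, and TGANTCA was in 4 (9.09%), where 5.21% did. These last motifs were chosen after values had been seen. The 9 genes with the 8 letters were *Atp6v0b*, *Atp6v0d1*, *Cln3*, *Ctsa*, *Gla*, *Glb1*, *Lamp1*, *Mcoln1* and *Naglu*. One match of each is shown with 16 bases on either side, read in the direction of the match, because these 9 genes share the letters. The letters were not used to choose the members. They are known from genes of this kind, however, so their share among the members is not an independent finding. Capitals mark the 8 letters.
Atp6v0b, chr4:117887344-117887383, minus strand: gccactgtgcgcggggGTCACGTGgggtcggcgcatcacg
Atp6v0d1, chr8:105566046-105566085, minus strand: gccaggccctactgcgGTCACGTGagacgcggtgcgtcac
Cln3, chr7:126583334-126583373, plus strand: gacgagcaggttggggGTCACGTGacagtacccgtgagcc
Ctsa, chr2:164833743-164833782, plus strand: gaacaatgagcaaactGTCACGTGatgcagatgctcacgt
Gla, chrX:134601178-134601217, minus strand: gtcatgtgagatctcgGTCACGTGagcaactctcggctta
Glb1, chr9:114401012-114401051, plus strand: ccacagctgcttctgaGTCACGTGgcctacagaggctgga
Lamp1, chr8:13159117-13159156, minus strand: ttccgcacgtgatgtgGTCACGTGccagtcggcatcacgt
Mcoln1, chr8:3500430-3500469, plus strand: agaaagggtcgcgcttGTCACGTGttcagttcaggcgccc
Naglu, chr11:101070003-101070042, plus strand: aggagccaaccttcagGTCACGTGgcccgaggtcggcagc
The matches shown began between positions -196 and -5 from the start. The 9 genes had median log2 ratios of -0.30 with RANKL, 0.20 with IL-3 and -0.22 in the cKO library, beside -0.13, 0.19 and -0.17 for the 27 other members over the minimum that had a window. None of the 9 was *Psap*, *Atp6v0a1* or a gene 2-fold lower with RANKL, and 1 of them, *Atp6v0d1*, was past the limit in any comparison.

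The MiT factor genes themselves differed among conditions. *Mitf*, which is needed for osteoclast formation in mice, had 18.4 FPKM in the cKO library, 12.3 FPKM in the IL-3 library, 32.6 FPKM in the RANKL library and 9.89 FPKM in the M-CSF library. It was highest with RANKL (log2 ratio 1.62 against M-CSF), and its ratio with IL-3 against RANKL was -1.33. *Tfec* stood at 17.3 FPKM in the cKO library, 72.5 FPKM in the IL-3 library, 19.1 FPKM in the RANKL library and 15.5 FPKM in the M-CSF library. It was thus high in the IL-3 library alone, with ratios of 1.87 against RANKL and -2.01 in the cKO library. *Tfeb*, the factor best known for lysosome genes, had 7.90, 12.4, 8.96 and 11.3 FPKM in the cKO, IL-3, RANKL and M-CSF libraries, and *Tfe3* had 32.6, 41.8, 29.5 and 43.8 FPKM in the cKO, IL-3, RANKL and M-CSF libraries. Neither was 2-fold apart in any comparison.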

How the data were processed

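RNA libraries of BMMs in 4 conditions, 1 library each, were made with a TruSeq RNA kit and sequenced on a HiSeq2000 system, per the study's methods and labels. According to the submitters' processing notes, the authors used TopHat2 2.0.13, Cufflinks 2.2.1 and the mm10 build, and they deposited 1 table of FPKM per RefSeq transcript. The unit is not named in the table and was read from the software and the values. Neither the alignment options nor the strand setting nor the treatment of reads that match several places is stated in the sources used here. Each column was assigned to its sample through the label's description.

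The FPKM of 33170 transcripts were summed per gene ID, after which 43 small RNA genes recognised by symbol that reached the minimum were left out. A pseudocount of 1 FPKM was added before the log2 ratio, which understates differences of low genes. No scaling between libraries was added. With 1 library per condition, no test, p-value or standard error was computed, and no paired fit exists. Members named with all values were those at least 2-fold apart, paralogs of subunits a, d and e, the highest of each role and those nearest the limit, and further members were named after their values were seen. The members, gene lists and rules were chosen with earlier results of these data known. Depth was estimated from low values of transcripts of at least 3000 nt, of which 68.9% to 71.8% lay within 0.2 steps of a whole fragment, against 40.0% for even spacing. The step was fitted to the same values. Intervals cover counting error only and were computed for ratios without the pseudocount. Positions are from GENCODE M21 (GRCm38) and promoter windows from RefSeq (GRCm38.p6). Python 3.11.15, numpy 2.4.6, pandas 2.3.3 and matplotlib 3.10.9 were used, and the ratio and count steps were tested on simulated data. Alternatives were a pseudocount of 0.1 FPKM, scaling to a common median ratio or upper quartile, no minimum or one of 5 FPKM, the most abundant transcript per gene and limits of 1.5-fold and 4-fold.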

Additional observations from a re-analysis of the deposited data

How the results depend on the processing

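No paired analysis was possible because each condition had 1 library and no result comes from a test. The counts of members past 2-fold were within 1.5 times of those reported with a pseudocount of 0.1 FPKM, both scalings, a minimum of 5 FPKM or none, and the most abundant transcript per gene. At 1.5-fold, RANKL left 3 members higher and 11 lower, IL-3 left 9 higher and 1 lower, and in the cKO library 0 were higher and 7 lower. At 4-fold, 1 member was higher and 1 lower with RANKL, IL-3 left 1 higher and 0 lower, and the cKO library had 0 higher and 1 lower. Scaling moved the medians with the shift of all genes. With the common median ratio, the pump medians were 0.032 with RANKL, 0.069 with IL-3 and -0.23 in the cKO library, and the lysosomal medians -0.49, 0.48 and -0.43. With the common upper quartile, the pump medians were 0.12, -0.032 and -0.18 for RANKL, IL-3 and cKO, and the lysosomal medians -0.41, 0.38 and -0.39. The common median ratio also shifted the split of all genes past 2-fold to 439 higher and 936 lower with RANKL (585 and 740 without scaling), 815 and 274 with IL-3 (658 and 373), and 186 and 550 in the cKO library (228 and 461). Of 135 member ratios, 132 moved by more than their counting error with that scaling and 3 did so with the smaller pseudocount, and none past 2-fold changed sign in any of the settings tried. Laptm5 also passed 2-fold with IL-3 under the upper quartile (1.02). Leaving out Psap was added after the data were seen. At this depth no difference was detectable for Atp6v0e2. Counting intervals of 0.08 and 0.05 to either side reached below the limit for Galns with RANKL (-1.03) and Atp6v0d1 with IL-3 (1.04). The spread between cultures or mice is unknown for every gene.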
